A study of Homo sapiens with 10 samples.

Results

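Interferon-stimulated genes are the genes whose transcription rises when a cell meets type I or type III interferon. Receptor engagement activates the kinases JAK1 and TYK2, which lead to phosphorylation of STAT2 and its assembly with IRF9 in the ISGF3 complex. ISGF3 binds the interferon-stimulated response element (ISRE) in the promoters of its targets. The products restrict viruses at many steps, from sensing of double-stranded RNA and cleavage of RNA to blocking of membrane fusion, and many are also transcribed at a low constant level by tumour cells that see no added interferon. In cancer cells, a signature of such genes that includes OAS1, IFIT1 and ISG15 is known for its link to resistance to DNA damage.

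The 39 genes described here were chosen by name, as commonly listed interferon-stimulated genes, and each matched 1 of the 58037 gene identifiers of the expression tables. They were followed in A549, a human lung adenocarcinoma cell line, and in A549/DDP, a cisplatin-resistant line derived from it, to ask how the parental and the resistant cells differed in RNA level and in m6A, the methylation of adenosine in mRNA. No library carried an added treatment, both lines were grown in RPMI 1640 with serum and stated to be at 10 passages or fewer, and the resistant line was a gift, so a single resistant derivative stands for resistance. For each line, 2 m6A-seq libraries (RNA fragments pulled down with an antibody to m6A) and 2 input libraries (the same kind of RNA without pull-down) were used. The A549/DDP inputs are called resistant in their titles and cell type, although their cell line entry reads A549, and the genotype of neither line was given.

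The 4 inputs held between 29225501 and 35286514 expected counts, and the spread between the replicates of each line was well beyond counting error, with a chi-square of their counts of 83.1 per degree of freedom for A549 and 53.5 for A549/DDP. In the second A549/DDP input, 664 genes (4.93%) had no count although the first had at least 50, and in the first 472 (3.48%) had none although the second had at least 50, against 1.06% and 1.22% in the A549 inputs. BST2, IFI27 and IFITM3 are among the genes at 0 in the second, and their differences below rest on that library. A further pair of A549 inputs, with 855034 and 982036 counts of which 75.2% and 73.9% were mitochondrial, held only 38 and 51 counts for all 39 genes and served as an alternative. KRT8 and KRT18, keratins of simple epithelium, were high in all 4 inputs, at 1591 to 9891 TPM (a unit scaled for transcript length and depth). The other epithelial markers were lower or differed between the lines. KRT19, another keratin, had 33.34 and 63.95 TPM in A549 and 9.24 and 0 TPM in A549/DDP. CDH1 had 28.89 and 40.35 TPM against 226 and 114 TPM, and EPCAM stood at 2.45 to 6.95 TPM. Of the alveolar markers, NKX2-1 and SFTPC had at most 1 count and NAPSA had 0 to 66 counts. SFTPB had 30 counts in the first A549/DDP input and none elsewhere. Of the leukocyte markers, PTPRC had 0 to 5 counts and CD3E none, while CD68 stood at 128 to 156 TPM in both lines. The sources do not say whether replicates came from separate cultures, so each p-value measures the spread between these libraries only, and in bulk RNA a change in the share of cells that express a gene cannot be told apart from a change per cell.

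The promoter sequences of 5 genes are shown here because the ISRE is the element through which ISGF3 acts. OAS1, OAS3, PARP9 and STAT2 are the 4 genes whose RNA differed between the lines below, and HERC5 is the gene with the lowest level in A549/DDP relative to A549. Each line is the strand of the gene, 5′ to 3′, up to the base before a RefSeq start site (GRCh38.p14), and capitals mark matches on either strand to the ISRE core, GAAANNGAAA, or to its form with 1 base between the GAAA repeats, GAAANGAAA.
OAS1, chr12:112906712-112906961, plus strand: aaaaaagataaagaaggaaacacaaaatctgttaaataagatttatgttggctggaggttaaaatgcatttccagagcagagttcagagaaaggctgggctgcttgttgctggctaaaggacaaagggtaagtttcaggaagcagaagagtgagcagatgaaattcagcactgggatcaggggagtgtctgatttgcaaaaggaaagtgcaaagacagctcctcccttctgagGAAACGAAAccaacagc
OAS3, chr12:112938224-112938473, plus strand: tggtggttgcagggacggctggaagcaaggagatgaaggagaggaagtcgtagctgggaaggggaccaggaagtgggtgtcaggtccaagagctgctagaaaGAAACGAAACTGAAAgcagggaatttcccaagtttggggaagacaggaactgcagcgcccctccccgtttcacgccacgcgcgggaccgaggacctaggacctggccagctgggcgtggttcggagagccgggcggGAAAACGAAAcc
PARP9, chr3:122564301-122564362, minus strand: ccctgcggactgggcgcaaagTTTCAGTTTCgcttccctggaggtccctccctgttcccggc
STAT2, chr12:56360108-56360357, minus strand: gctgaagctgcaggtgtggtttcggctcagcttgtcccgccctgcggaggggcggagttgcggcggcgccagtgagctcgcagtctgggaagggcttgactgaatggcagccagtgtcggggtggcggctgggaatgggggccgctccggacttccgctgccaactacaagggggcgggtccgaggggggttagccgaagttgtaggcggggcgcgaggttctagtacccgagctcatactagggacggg
HERC5, chr4:88456869-88457118, plus strand: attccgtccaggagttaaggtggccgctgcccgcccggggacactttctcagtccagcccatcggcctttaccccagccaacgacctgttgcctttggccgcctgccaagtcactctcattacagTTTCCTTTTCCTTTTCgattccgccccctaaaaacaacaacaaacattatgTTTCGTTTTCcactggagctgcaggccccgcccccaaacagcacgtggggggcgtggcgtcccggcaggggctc

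OAS3 held 3 matches, of which 2 overlap at -148 to -134 from the start site and the third lies at -12 to -3. OAS1 held 1 match of the shorter form at -17 to -9. STAT2 held no match to either form in this window. The PARP9 match lay on the opposite strand at -41 to -32 from the second of its RefSeq start sites, and the same 10 bases spanned the start site of DTX3L, at -6 to 4, where the 2 genes, whose spans share 447 bases, start in opposite directions. HERC5 held 3 matches, all on the opposite strand.

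RefSeq promoter windows, from 250 bases before to 50 bases after a start site, were found for 32 of the 39 genes, which have 43 windows in all. IRF7, USP18, OAS2, OASL, IFIT2, IFITM2 and MX2 had no window in the table. GAAANNGAAA, searched on both strands, was present in 27 of the 43 windows (62.8%), against 3.57% of all 35116 windows. GAAANGAAA was present in 13 windows (30.2%, against 3.12%), and at least 1 of the forms in 27 of the 32 genes, with overlaps between the forms allowed. The TTCNNNGAA element, through which interferon-gamma acts on its targets, was present in 9 windows (20.9%, against 7.66%). Of the 4 genes that differed between the lines, 3 held an ISRE-core match, as did 19 of the 23 other tested genes with a window. HERC6, IRF9, SAMD9L and UBE2L6 were the tested genes besides STAT2 whose windows held none. A match is a string of letters and does not show that the site was bound.

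Of 9 interferon genes examined, IFNE was the one with any count. The other 8 (IFNA1, IFNA2, IFNB1, IFNK, IFNL1, IFNL2, IFNL3 and IFNG) had no count in any of the 4 inputs, and IFNE had 34 and 0 counts in A549 and 44 and 39 in A549/DDP. In these libraries a count of 0 allows a level of up to 0.085 to 0.103 CPM (3 counts, for counting error only). The interferon-stimulated genes were nevertheless detected at low to moderate levels. In TPM, 30 of the 39 averaged at least 1 over the 4 inputs, with a median of 7.97 among them against 17.3 among the 15398 genes of the whole table at that level. The 5 highest were LGALS3BP (81.4 TPM on average), EIF2AK2 (32.0), STAT2 (30.4), IRF9 (30.4) and IFI35 (26.6). At the other end, RSAD2, CMPK2, IFI44, IFI44L and XAF1, which rise steeply after interferon in many cells, had at most 31 counts in any library and were not tested. The summed TPM of all 39 genes was 322 and 358 in A549 and 489 and 443 in A549/DDP.

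Between the lines, 34 genes passed the filter on low counts and were tested by edgeR (quasi-likelihood, p adjusted by Benjamini-Hochberg over the 16406 genes tested). STAT2, OAS1, OAS3 and PARP9 were higher in A549/DDP at an adjusted p under 0.05, and none was lower; 30 did not pass. These 4 of 34 (11.8%) stand beside 2437 of all genes tested (14.9%), 6.85% higher and 8.0% lower, a share near that of the whole table. The log2 fold change, A549/DDP over A549, had a median of 0.44 over the 34 genes and of 0.00 over all genes, with 21 positive and 13 negative values. CPM, the counts scaled to library size by TMM, of the lines did not overlap for 10 of the 34 with A549/DDP higher and for 8 with A549/DDP lower, against 29.7% and 32.7% of all genes tested. Median standard errors were 0.75 on the log2 scale for the 34 genes and 0.43 for all genes.

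**Figure D1:**
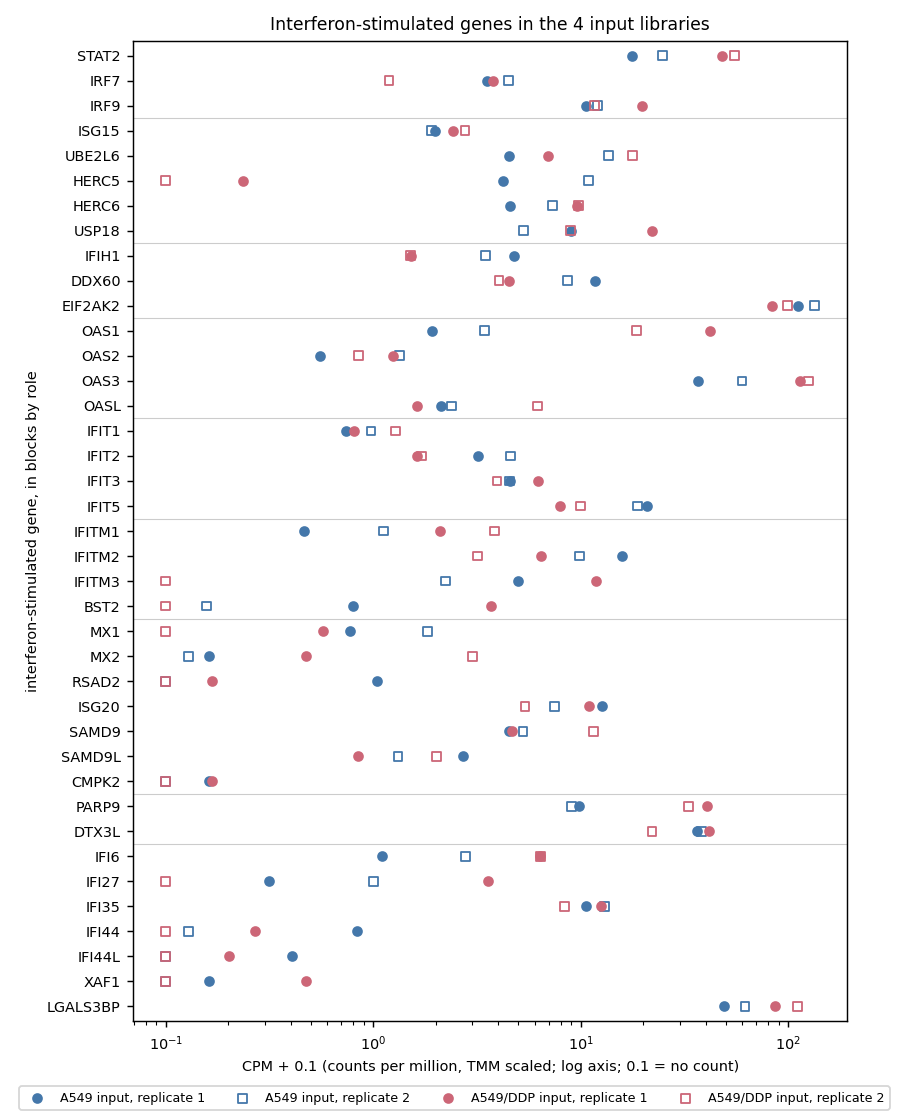
CPM + 0.1 of each of the 39 interferon-stimulated genes (rows, in blocks by role) in the 4 input libraries, on a log axis; blue marks A549 and red A549/DDP, filled circles replicate 1 and open squares replicate 2, and a point at 0.1 is a library with no count. The red points of OAS1, OAS3, PARP9 and STAT2 lie to the right of the blue points, those of HERC5, IFIT5, IFIH1, DDX60 and EIF2AK2 to the left.

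OAS1 had the largest fold change of the 4. It encodes the smallest of the oligoadenylate synthetases, enzymes that sense double-stranded RNA and make 2′-5′ oligoadenylate, the activator of RNase L. Its level was 1.82 and 3.33 CPM in A549 and 41.6 and 18.4 CPM in A549/DDP. Both resistant libraries were above both parental ones, although they differed from each other by more than the parental libraries did. The difference was 11.6-fold (log2 3.54, SE 0.59, edgeR adjusted p = 0.0156), and it passed the threshold in 12 of 13 alternative fits, with adjusted p of 7.74e-10 to 0.1.

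OAS3, the largest synthetase, which recognises long double-stranded RNA, had 36.4 and 59.7 CPM in A549 and 113 and 125 CPM in A549/DDP. The lines did not overlap, and the 2 resistant libraries lay close together. The difference was 2.48-fold (log2 1.31, SE 0.27, edgeR adjusted p = 0.0294). OAS2 and OASL, the other members of the family, did not pass: OAS2 was at 0.46 and 1.24 CPM in A549 and 1.15 and 0.75 CPM in A549/DDP (log2 0.16, SE 1.61), and OASL differed by a log2 of 0.83 with an SE of 1.11. In summed TPM the 4 synthetases stood at 14.5 and 23.3 in A549 and 79.6 and 58.2 in A549/DDP. OAS1, OAS3 and OAS2 lie next to one another on chromosome 12, and of these OAS2 had the lowest TPM in every library.

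PARP9 encodes a macrodomain protein that works with the E3 ubiquitin ligase DTX3L in the response to DNA damage and in interferon signalling. It had 9.67 and 8.91 CPM in A549 and 40.2 and 32.8 CPM in A549/DDP. Each line's replicates were close and the lines far apart, at 3.93-fold (log2 1.97, SE 0.32, edgeR adjusted p = 0.0136). Its partner DTX3L, which starts in the same region in the other direction, had 36.1 and 38.1 CPM in A549 and 41.2 and 21.9 CPM in A549/DDP. The resistant libraries of DTX3L spanned the parental ones (log2 -0.24, SE 0.35, adjusted p = 0.724). The difference between the 2 fold changes was not tested.

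STAT2 is the subunit of ISGF3 that carries its activation domain. It had 17.6 and 24.6 CPM in A549 and 47.9 and 54.8 CPM in A549/DDP. The lines did not overlap, and the difference was 2.44-fold (log2 1.28, SE 0.28, edgeR adjusted p = 0.033). IRF9, the DNA-binding subunit, had 10.5 and 11.96 CPM in A549 and 19.7 and 11.6 CPM in A549/DDP, so the second resistant library lay within the parental range (log2 0.48, SE 0.44). IRF7, which amplifies interferon production, was at 3.43 and 4.37 CPM against 3.68 and 1.09 CPM.

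The calls of STAT2, OAS3 and PARP9 depended on the fit more than that of OAS1. On log2(TPM + 1) with limma, or with both A549 pairs as controls, only OAS1 of the 39 passed (adjusted p = 0.023 and 0.0254). Without the second A549/DDP input the calls of STAT2 and OAS3 were lost, and without the first that of STAT2. With the second A549 pair in place of the first, OAS1 and PARP9 did not pass. The direction of all 4 was positive under every alternative.

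**Figure D2:**
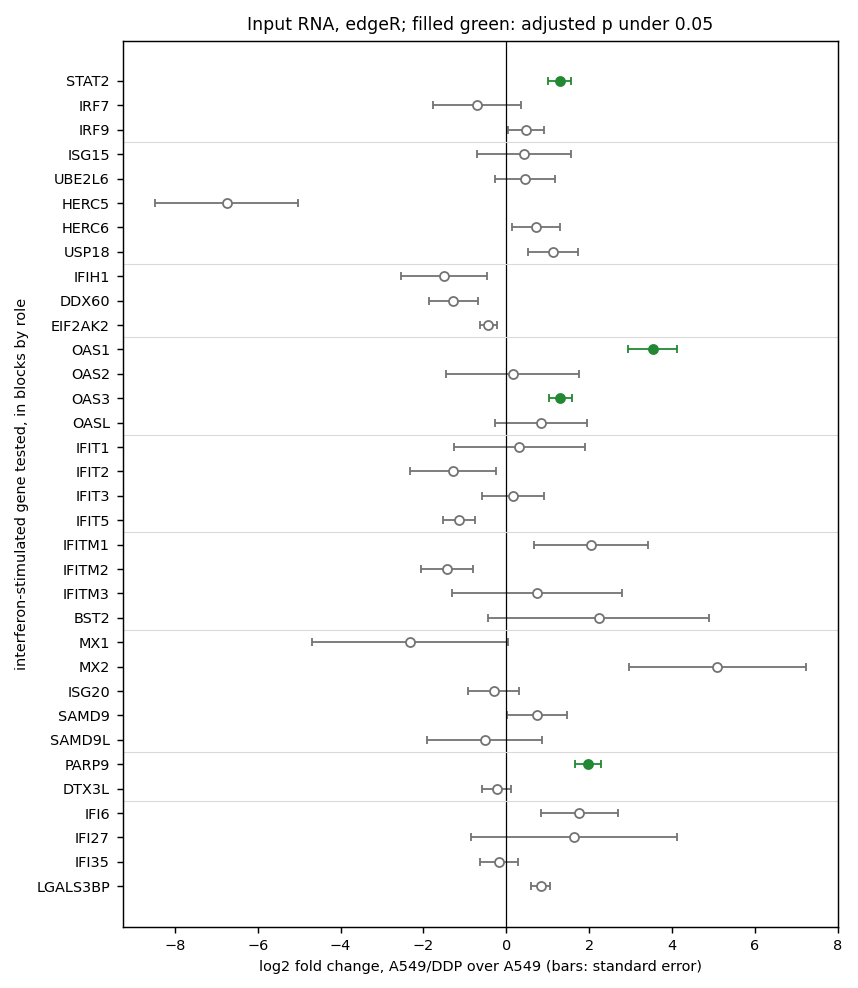
Log2 fold change, A549/DDP over A549, of the 34 interferon-stimulated genes tested, with bars of 1 standard error and rows in blocks by role. The 4 filled points are OAS1, PARP9, OAS3 and STAT2, which passed an adjusted p of 0.05; HERC5, at -6.75, lies farthest to the left.

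HERC5 went the other way in level but did not pass. It is the E3 ligase that attaches ISG15, a ubiquitin-like protein, to newly made proteins. It had 136 and 381 counts in A549 and 4 and 0 counts in A549/DDP, or 4.13 and 10.7 CPM against 0.13 and 0 CPM. Both resistant libraries were near the floor, and the adjusted p was 0.0505 (log2 -6.75, SE 1.72). It passed in 7 of 11 alternative fits. HERC6, its neighbour on chromosome 4, did not follow: it had 4.47 and 7.19 CPM in A549 and 9.48 and 9.66 CPM in A549/DDP (log2 0.71, SE 0.58).

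The rest of the ISG15 system did not pass either. ISG15 itself was low, at 1.88 and 1.81 CPM in A549 and 2.33 and 2.67 CPM in A549/DDP. UBE2L6, its E2 enzyme, differed more between the replicates of each line than between the means of the lines. It had 4.41 and 13.5 CPM in A549 (mean 8.95) and 6.81 and 17.6 CPM in A549/DDP (mean 12.2). USP18, which removes ISG15 and dampens the receptor, had 8.91 and 5.19 CPM against 21.9 and 8.83 CPM. Their log2 values were between 0.44 and 1.12, with standard errors of 0.61 to 1.13.

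Apart from the synthetases, the 3 members that sense double-stranded RNA or act with its sensors, IFIH1, DDX60 and EIF2AK2, had lower values in A549/DDP, none past the threshold. IFIH1 (MDA5) had 4.65 and 3.36 CPM in A549 and 1.42 and 1.40 CPM in A549/DDP. DDX60, a helicase that acts with the sensors, had 11.6 and 8.52 CPM against 4.39 and 3.93 CPM. EIF2AK2 (PKR), the kinase that halts translation, had 111 and 134 CPM against 82.9 and 98.7 CPM. In each of the 3 the lines did not overlap, as was so with A549/DDP lower for 32.7% of all genes tested. The edgeR adjusted p-values were 0.388, 0.198 and 0.194. RIG-I (DDX58, listed as RIGI), another sensor, showed a log2 of -0.39 with an SE of 0.47, and TLR3, the endosomal sensor, had 0 and 1.18 CPM in A549 and 1.79 and 2.84 CPM in A549/DDP (log2 1.96, SE 2.20). For EIF2AK2 the scale mattered: in TPM it stood at 43.2 and 41.2 in A549 and 19.8 and 23.7 in A549/DDP, a wider gap than in CPM. TPM also takes in a transcript length estimated in each library, which CPM does not.

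The IFIT proteins, which bind foreign RNA ends, gave mixed values. IFIT5 had 20.7 and 18.6 CPM in A549 and 7.83 and 9.89 CPM in A549/DDP (log2 -1.15, SE 0.38, adjusted p = 0.0982). Its replicates were close and the lines apart. IFIT2 also had lower values in A549/DDP (3.10 and 4.49 against 1.52 and 1.61 CPM), whereas IFIT1 and IFIT3 overlapped between the lines. IFIT1, IFIT2 and IFIT3 lie within the RefSeq span of LIPA, and how reads were assigned by strand is not given in the sources used here.

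Among the membrane restriction factors, the IFITM proteins block fusion of viral and cell membranes and BST2 tethers budding virus. IFITM2 had 15.7 and 9.76 CPM in A549 and 6.34 and 3.07 CPM in A549/DDP (log2 -1.44, SE 0.62, adjusted p = 0.173). IFITM1 showed the opposite order, at 0.36 and 1.02 CPM against 1.99 and 3.73 CPM (log2 2.04, SE 1.39). These genes are near copies whose reads the authors' program shared out as fractions, so the split between them is uncertain; summed, IFITM1, IFITM2 and IFITM3 gave a log2 of -0.33 (SE 0.59, adjusted p = 0.773). IFITM3 and BST2 had 347 and 106 counts in the first A549/DDP input and none in the second, and neither passed.

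LGALS3BP, a secreted glycoprotein and the most abundant member, had 48.8 and 61.7 CPM in A549 and 86.2 and 111 CPM in A549/DDP. The lines did not overlap, and the value lay just outside the threshold (log2 0.83, SE 0.23, adjusted p = 0.0609). It passed in 6 of 13 alternative fits. IFI6, a small membrane protein that opposes apoptosis, had 1.00 and 2.68 CPM against 6.24 and 6.31 CPM (log2 1.77, SE 0.92, adjusted p = 0.249). IFI35 did not separate the lines, at 10.5 and 12.8 CPM against 12.3 and 8.20 CPM. Of the remaining antiviral effectors, MX2 had 2 and 1 counts in A549 and 11 and 101 in A549/DDP (adjusted p = 0.16), and MX1, ISG20, SAMD9 and SAMD9L had adjusted p-values of 0.557 or more.

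The genes that carry and restrain the interferon signal were followed as a second list of 38, of which 28 were tested. None passed as higher in A549/DDP (6.85% of all genes tested did) and 5 passed as lower (17.9%, against 8.0% of all genes), with a median log2 of -0.34. The receptor chain IL10RB, shared by interferon lambda and IL-10, had 47.8 and 38.8 CPM in A549 and 13.1 and 8.34 CPM in A549/DDP (log2 -2.02, SE 0.35, adjusted p = 0.0168). JAK1, a kinase of the type I, type II and type III receptors, had 485 and 499 CPM against 219 and 245 CPM (log2 -1.09, SE 0.15, adjusted p = 0.0102). Both resistant libraries were under the parental ones in each case.

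SOCS3, a feedback inhibitor of JAK kinases, had 110 and 116 CPM in A549 and 33.8 and 26.4 CPM in A549/DDP (log2 -1.91, SE 0.22, adjusted p = 0.0057) and passed in all 13 alternative fits. STAT3 (log2 -0.79, SE 0.17, adjusted p = 0.0314) and TRIM25, the ubiquitin ligase that activates RIG-I (log2 -0.91, SE 0.21, adjusted p = 0.0368), were also lower. TYK2, the other kinase of the type I receptor, had higher values in A549/DDP (log2 0.74, SE 0.19, adjusted p = 0.0518) and did not pass. IRF1 showed a log2 of -0.77 with an SE of 0.26 (adjusted p = 0.101). With the shallow second A549 pair in place of the first, which moved the median of all genes to 0.80, the log2 values of IL10RB, JAK1, STAT3 and TRIM25 turned positive, at 1.36, 0.48, 0.80 and 1.36.

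A list of 15 genes linked mainly to interferon-gamma was followed alongside, and 9 were tested. TAP1, the peptide transporter of antigen presentation, had 50.6 and 66.0 CPM in A549 and 20.8 and 15.9 CPM in A549/DDP (log2 -1.67, SE 0.28, adjusted p = 0.0159). PSMB8, a subunit of the immunoproteasome, had 483 and 440 counts in A549 and 9 and 0 counts in A549/DDP (log2 -6.49, SE 1.45, adjusted p = 0.0352). These 2 of 9 (22.2%, against 8.0% of all genes called lower) were the genes of that list that passed. Of the 9 log2 values, 4 were positive and 5 negative. PSMB9, another immunoproteasome subunit, had 170 and 308 counts in A549 and 4 and 0 in A549/DDP. It did not pass (log2 -6.64, SE 1.71, adjusted p = 0.0513). ICAM1 had 307 and 555 counts against 26 and 0 (log2 -4.84, SE 1.65, adjusted p = 0.103). NLRC5, an activator of MHC class I genes, had higher values in A549/DDP, at 2.10 and 2.93 CPM against 13.8 and 9.89 CPM (log2 2.23, SE 0.63, adjusted p = 0.0639), and did not pass. CXCL9, CXCL10, CXCL11 and IDO1, which are strongly induced by interferon-gamma, had at most 1 count in any input.

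Called m6A peaks were counted next. For each m6A-seq library the authors' list gives the position, exon blocks and p-value of every peak, and no fold or depth, so the lists show where a peak was called and not how much m6A was there. Of the 39 genes, 15 had a peak in at least 1 library, and all 15 were among the 30 with a mean of at least 1 TPM (50%, against 60.0% of the 15398 genes at that level). Peaks in both A549 libraries were called in 6 of the 30 (20%, against 28.7%), in both A549/DDP libraries in 4 (13.3%, against 20.7%), and in all 4 libraries in 4 (13.3%, against 14.7%). These shares moved with the level of RNA: at a mean of at least 5 TPM, the same 6, 4 and 4 genes were 33.3%, 22.2% and 22.2% of 18, against 35.5%, 26.6% and 19.0% of all genes at that level. The lists differ in length, at 26320 and 14576 peaks in A549 and 27244 and 10661 in A549/DDP, and they held 38, 21, 30 and 17 peaks of these genes. By library, 13 and 6 of the 30 genes had a peak in A549 (46.0% and 32.5% of all genes at that level) and 6 and 7 in A549/DDP (43.2% and 23.5%). Of 62 regions formed by merging peaks that share a base, 44 came from a single library and 7 from all 4. Peaks of other genes were not merged, so whether these counts are usual for the lists is not known.

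**Figure D3:**
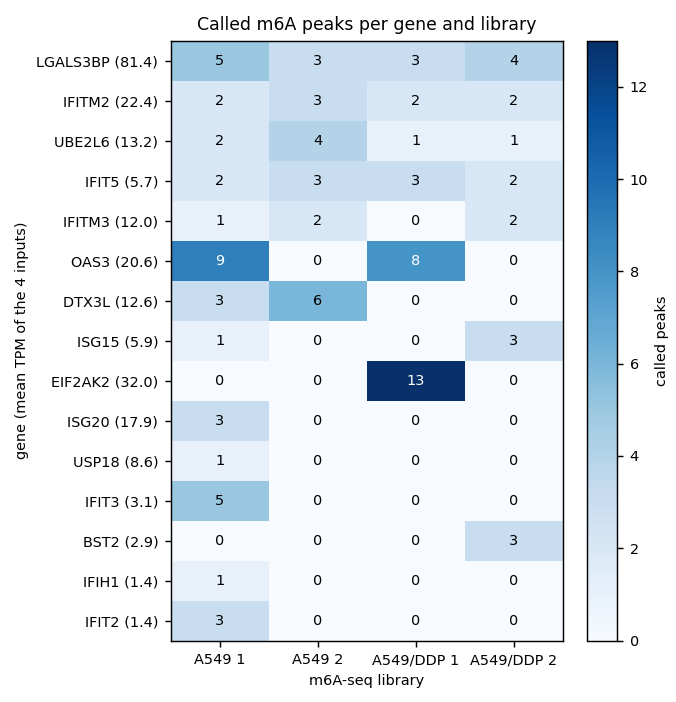
Number of called m6A peaks in each of the 15 interferon-stimulated genes with any peak (rows, with the mean TPM of the 4 inputs) and each m6A-seq library (columns). The top 4 rows have a peak in every library; EIF2AK2 has 13 peaks in 1 A549/DDP library and none elsewhere, and DTX3L has peaks in the A549 libraries only.

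Of the 4 genes with higher RNA in A549/DDP, STAT2, OAS1 and PARP9 had no called peak in any library. Among all genes at a mean of 20 TPM or more over the 4 inputs, the class of STAT2, OAS1 and OAS3, 79.5% had a peak in at least 1 library. At 5 to 20 TPM, the class of PARP9, 58.4% did. In A549 alone the mean was 4.955 TPM for OAS1, 12.2 for OAS3 and 4.82 for PARP9, each below its class. For the A549 libraries these shares are therefore not those of genes at the same level. OAS3 had 9 peaks in the first A549 library and 8 in the first A549/DDP library, and none in the second library of either line. Blocks of the 2 lists shared 749 bases, among them chr12:112941711-112941959 and, 0.05 kb from the 3′ end, chr12:112973050-112973199. The smallest p-values of these peaks were 3e-05 in A549 and 0.00095 in A549/DDP. In none of the 4 genes was a peak called in both libraries of one line and in neither of the other. Few genes had that pattern: of all genes at a mean of at least 1 TPM, 4.84% had it for A549 and 2.11% for A549/DDP.

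LGALS3BP, IFITM2, UBE2L6 and IFIT5 had peaks in all 4 libraries. Of these, only UBE2L6 had a peak with a listed p at or below 1e-05 in every library. The smallest listed p-values of LGALS3BP peaks were 7.8e-06 and 0.00013 in A549 and 0.0002 and 0.00016 in A549/DDP. For IFIT5 the smallest in the first A549 library was 0.00025, and for IFITM2 the smallest in the first A549/DDP library was 0.00052. LGALS3BP had 5 and 3 peaks in A549 and 3 and 4 in A549/DDP. Blocks of every library covered 749 bases in 4 stretches, the longest, of 349 bases, at chr17:78971537-78971885, which ends 0.28 kb before the 3′ end of the gene. IFIT5 had 2 and 3 peaks in A549 and 3 and 2 in A549/DDP, and its shared stretches lay at 2.92 to 3.86 kb from the 5′ end of a gene of 6.43 kb, the longest, of 150 bases, at chr10:89418077-89418226.

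In UBE2L6 (2 and 4 peaks in A549, 1 and 1 in A549/DDP) the longest shared stretch, of 101 bases, lay at chr11:57552355-57552455, 0.69 kb from the 3′ end. In IFITM2 (2 and 3 peaks in A549, 2 and 2 in A549/DDP) it was chr11:309099-309249, 0.15 kb from the 3′ end. In the second A549 library the peaks named IFITM2 reached past that gene into IFITM1, a near copy, so the assignment between the 2 is uncertain. The RNA of none of these 4 genes passed the test between the lines.

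DTX3L had 3 and 6 peaks in A549 and none in A549/DDP. The A549 blocks shared 601 bases, the longest stretch, of 200 bases, at chr3:122569144-122569343. Among genes at a mean of 1 TPM or more, 4.84% had peaks in both A549 libraries and in no A549/DDP library. The reverse pattern, peaks in both A549/DDP libraries and in no A549 library, was seen in 2.11% of genes and in 0 of the 30. The peaks of the first A549 library had p-values down to 3.8e-06 and those of the second down to 0.0013. DTX3L RNA was at 11.0 and 12.1 TPM in A549/DDP, against 16.5 and 10.9 TPM in A549, and the lines overlapped. IFITM3 also had peaks in both A549 libraries (1 and 2) and had 2 in the second A549/DDP library.

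Several genes had peaks in 1 library only. EIF2AK2 had 13 peaks in the first A549/DDP library and none in the other 3, although its input counts were 2456 to 4739 in all 4 inputs. IFIT3 had 5 peaks, IFIT2 and ISG20 3 each, and IFIH1 and USP18 1 each in the first A549 library alone. In the second A549/DDP library BST2 had 3 peaks and IFITM3 had 2, while the input of the same number held no count for either gene; over all genes with a peak in that library, 5.79% had no count in that input. The part that depth of the lists played in these patterns was not tested.

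**Figure D4:**
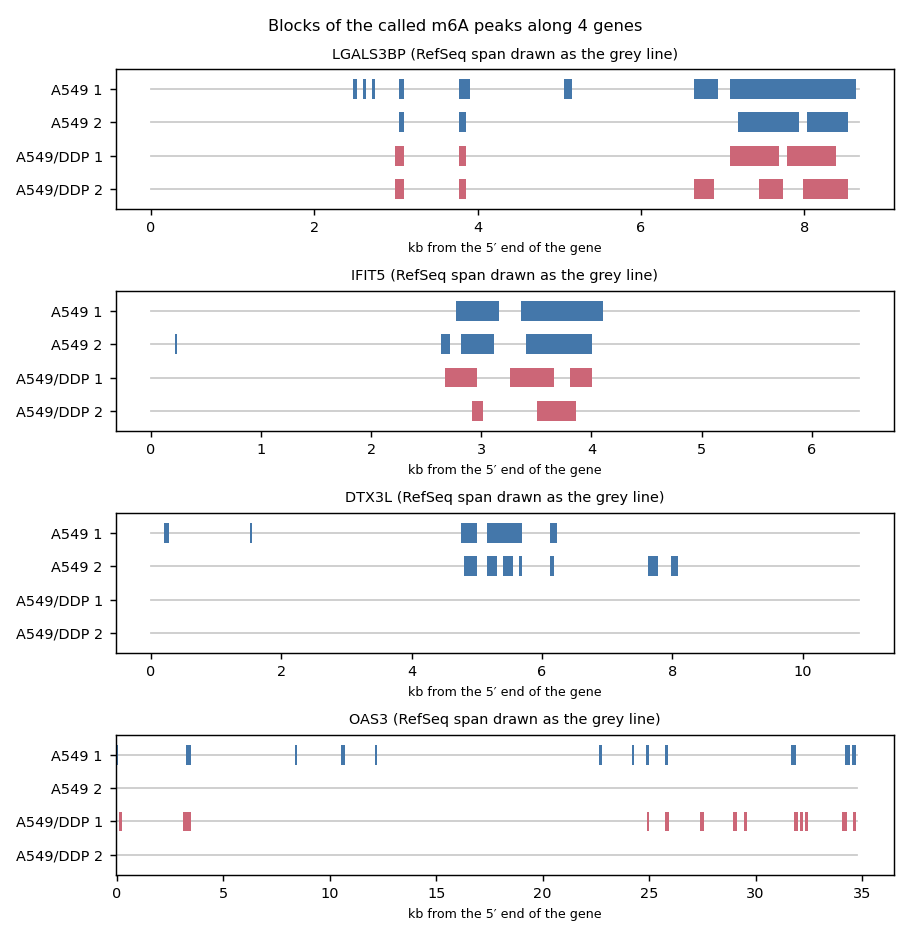
Exon blocks of the called m6A peaks in LGALS3BP, IFIT5, DTX3L and OAS3, drawn in kb from the 5′ end of the gene, with 1 row per m6A-seq library (blue A549, red A549/DDP). LGALS3BP and IFIT5 have blocks at like positions in all 4 rows, DTX3L in the 2 A549 rows only, and OAS3 in the first library of each line.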

How the data were processed

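Sequencing was done on the authors' strand-specific paired-end libraries. The deposited input tables, which have the columns that RSEM writes, hold expected counts (estimates, not normalized) as well as TPM and FPKM (scaled by the authors' program for length and depth). The deposited m6A-seq lists give a p-value for each called peak and do not say if it was adjusted. The submitters' processing notes name STAR, RSEM, bedtools and hg38; versions, the strand setting and the peak caller are not given in the sources used here. FPKM was not used. Expected counts were rounded, filtered (filterByExpr), scaled by TMM and tested in edgeR 4.0.16 (R 4.3.3) for 2 inputs against 2 without a block. Levels between genes were compared in TPM. Peaks were assigned by the gene named in the lists, and their starts were shifted to count from 1. For the A549 m6A-seq libraries the labels' replicate numbers were followed, which differ from those of the files.

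Members and lists were chosen with earlier results of these data known. Full values were given for members with an adjusted p under 0.05, the 5 with the highest TPM and those with peaks in both libraries of a line, for listed pathway genes under that threshold, and for IFNB1, IFNL1, DDX58 and IRF1; the interferons were given as a group, most other pathway genes entered counts and medians only, and 1 was left out of the list and is not reported here. Other members, TYK2, TLR3, NLRC5, PSMB9 and ICAM1 were named after their values were seen. Symbols were matched for 56993 of 58037 identifiers through the name table. The fit was checked on simulated counts with known changes, placed only in well-counted genes and drawn with the dispersions of the same data. That check does not cover genes of low count or zeros confined to a single library. Alternatives were DESeq2 1.42.0, limma 3.58.1 on log2(TPM + 1) or log2(TPM + 0.1), other filters and scaling, a replicate block, the second A549 pair, each library left out, a peak p of 1e-05, a TPM minimum of 5 and a 50% overlap; pairs crossed by number and summed IFITM genes were added after seeing the data.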

Additional observations from a re-analysis of the deposited data

How the results depend on the processing

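The numbers of the replicates were not shown to pair the libraries: deviations of same-numbered inputs from their line's mean correlated at 0.026. With the replicate number as a block, 3536 genes passed in all, of them 6 of the 39 and 14 of the 2 further lists. The median log2 was 0.21 over the 34 genes tested, and IFITM3 (-2.17) and IFI27 (-0.92) changed sign. With the pairs crossed, the corresponding values were 3404, 6, 12, 0.21, -2.16 and -0.99.

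STAT2, OAS1, OAS3 and PARP9 kept their direction under every alternative run, and the count of the 39 genes called was 1 to 6, against 4. It fell to 1 (OAS1) under limma on log2(TPM + 1), on log2(TPM + 0.1) and with both A549 pairs. The corresponding counts over all genes, 2437 as reported, were 1492, 1177 and 677, and they were 4234 with DESeq2, 4010 without the filter and 3758 with the second A549 pair, where 63.1% of the calls were higher against 46.1%. Of the 2 further lists, 7 genes passed as reported, 17 with DESeq2 or without the filter, 15 at 10 counts in every library and 3 with both A549 pairs. The 7, and the 3 with both pairs, were all lower in A549/DDP. With DESeq2 6 were higher and 11 lower, and without the filter 4 and 13. At 10 counts in every library 6 were higher and 9 lower, and with the replicate block 2 and 12. With the second A549 pair in place of the first, 6 were higher and 1 lower. The median log2 was taken over those of the 39 tested in each fit, so the set of genes differed, and it was reported as 0.44 over 34. It was 0.30 over 39 without the filter, 0.28 over 30 on log2(TPM + 0.1) and 2.08 over 28 with the second A549 pair. In that last fit the median of all genes was 0.80. The cause of these shifts was not tested.

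Some log2 values changed sign. With the second A549 pair those of IRF7 (8.27), SAMD9L (7.44), UBE2L6 (-0.016), DTX3L (0.93), IL10RB (1.36), JAK1 (0.48), STAT3 (0.80) and TRIM25 (1.36) did. On log2(TPM + 1) IFI35 was at 0.20 and IFITM3 at -1.03, and on log2(TPM + 0.1) IFI35 was at 0.21, IFITM3 at -2.59 and IFI27 at -0.46.

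Leaving out each input in turn, which assumes that the lone library of a line varies like the others, gave 2052 to 3809 genes in all, 3 to 5 of the 39, 7 to 12 of the further lists and a median of -0.22 to 0.47. The lowest median, -0.22, came without the first A549/DDP input, where the median of all genes was -0.20. The log2 ranges that crossed zero were UBE2L6 -0.40 to 1.45, OAS2 -0.41 to 1.03, OASL -0.51 to 1.49, IFIT1 -0.10 to 0.61, IFIT3 -0.23 to 0.45, IFITM3 -9.92 to 1.74, BST2 -6.72 to 4.88, ISG20 -0.94 to 0.11, SAMD9 -0.079 to 1.24, SAMD9L -1.37 to 0.12, DTX3L -0.78 to 0.14, IFI27 -7.28 to 2.99 and IFI35 -0.53 to 0.075.

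For peaks, a p at or below 1e-05 left 2 genes with peaks in both A549 libraries, 2 in both A549/DDP libraries, 1 (UBE2L6) in all 4 and 1 region in all 4. The gene counts were 6.67%, 6.67% and 3.33% of the 30 at a mean of at least 1 TPM. Of all genes at that level, 6.77%, 6.25% and 1.66% had such peaks. Without each m6A-seq library in turn, 6 to 13 genes had peaks in the remaining A549 libraries and 4 to 7 in the remaining A549/DDP libraries, 13 being the count of the first A549 library alone and 7 that of the second A549/DDP library alone. These were 20% to 43.3% and 13.3% to 23.3% of the 30. The ranges over all genes at that level were 28.7% to 46.0% and 20.7% to 43.2%. A 50% overlap changed none of the region counts. At a TPM minimum of 5 the share of these genes with peaks in all 4 libraries went from 13.3% (14.7% of all genes) to 22.2% (19.0%), and that in both A549 libraries from 20% (28.7%) to 33.3% (35.5%).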
